A study of Mus musculus with 4 samples.

Results

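The enzymes that lengthen fatty acids are described in brown fat of Sox4f/f mice and mice labelled Sox4-MKO, whose Sox4 mRNA was not detectably lower. They comprise the 7 elongases Elovl1 to Elovl7 and 3 partner enzymes, Hsd17b12, Hacd3 and Tecr, which were taken by gene symbol, 10 of the 55387 rows listed for each library. The samples were brown adipose tissue (BAT) of 15-week-old male littermates kept at room temperature, with 2 mice per genotype and 1 RNA sequencing library per mouse. The control mice were Sox4f/f, with loxP sites around Sox4, and the labels give their genotype as WT. The Sox4-MKO mice carried the same alleles and Myf5-Cre, which is active in the progenitors of brown adipocytes and also of skeletal muscle. Values are FPKM, fragment numbers divided by transcript length and by sequencing depth, so that levels of different genes can be compared per length.

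Fatty acids are made up to palmitate in the cytosol and are lengthened further at the endoplasmic reticulum. Each round adds a pair of carbons from malonyl-CoA in a condensation by an ELOVL enzyme, followed by a ketoreduction (HSD17B12), a dehydration (a HACD enzyme) and an enoyl reduction (TECR). The ELOVL enzyme sets which chain is accepted, and the other steps are shared. In brown fat Elovl3 is known as a cold-induced gene, and Elovl6, which turns palmitate into stearate, as a target of the lipogenic regulator SREBP-1c.

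Promoter sequence is shown for the 2 members with an unadjusted p under 0.05 between the genotypes, Elovl6 and Hsd17b12, and for Elovl5, the second most abundant elongase. The sequences are from RefSeq (GRCm38.p6), run 5′ to 3′ on the strand of the gene and end before its annotated start. Capitals mark matches to the CCAAT box (CCAAT, read ATTGG where it lies on the opposite strand) and to the E-box (CACGTG), the only searched motifs found in these stretches.
Elovl6 promoter, chr3:129532136-129532354, plus strand: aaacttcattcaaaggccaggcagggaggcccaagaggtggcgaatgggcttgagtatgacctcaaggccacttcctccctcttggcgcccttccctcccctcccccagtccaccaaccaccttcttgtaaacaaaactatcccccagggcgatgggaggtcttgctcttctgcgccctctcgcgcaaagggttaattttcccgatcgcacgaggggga
Hsd17b12 promoter, chr2:94157965-94158159, minus strand: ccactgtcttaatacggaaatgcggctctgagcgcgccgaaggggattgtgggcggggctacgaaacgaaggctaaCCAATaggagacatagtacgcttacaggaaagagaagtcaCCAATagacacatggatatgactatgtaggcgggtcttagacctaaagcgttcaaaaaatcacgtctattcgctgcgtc
Elovl5 promoter, chr9:77917115-77917363, plus strand: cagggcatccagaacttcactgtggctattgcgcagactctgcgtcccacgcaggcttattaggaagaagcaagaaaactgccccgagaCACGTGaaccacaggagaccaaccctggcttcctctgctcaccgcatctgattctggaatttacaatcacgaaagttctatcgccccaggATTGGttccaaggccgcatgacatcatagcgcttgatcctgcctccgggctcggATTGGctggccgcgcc
The Elovl6 stretch held none of the 7 motifs searched on both strands. Hsd17b12 had 2 CCAAT boxes on its own strand, and Elovl5 had 1 E-box, which reads the same on both strands, and 2 CCAAT boxes on the opposite strand. Over the full windows of 300 bases around the annotated starts, which cover 9 of the 10 members in 11 windows, a CCAAT box was present in 6, against 37.4% of 32851 windows of all genes. The E-box was present in 3 (7.15% of all windows), the SOX core ACAAAG in 3 (18.7%), the SOX core ACAATG in 1 (12.6%), and the sterol regulatory element core TCACCCCAC in 0 (0.551%). The ACAATG match was in the Elovl5 window, on the opposite strand, from base -2 relative to the RefSeq start. It runs past the end of the Elovl5 stretch shown and is therefore not marked there. The PPAR response element (0.0396% of all windows) and the EBF palindrome (0.904%) had no match in a member's window. A match only says that these letters are present.

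Sox4 itself (chromosome 13 of GRCm38, 28948919 to 28953713) was not detectably lower under the Sox4-MKO label. Its level was 1.98 and 1.06 FPKM in control mice 1 and 2, and 0.981 and 3.06 FPKM in mice 1 and 2 labelled Sox4-MKO. Fitted by limma, it differed by 0.20 on the log2 scale with a standard error of 0.43 (adjusted p = 0.843). The 95% interval of -0.95 to 1.34 includes a lower level, and the value was -0.32 without the second mouse labelled Sox4-MKO. Sox4 rests on an estimated 59.3 to 238 fragments per library, and Gm26735 overlaps it by exon on the opposite strand. In BAT of younger Sox4-MKO mice the study reported strongly reduced SOX4 protein. All directions below follow the labels. Depth was estimated at 12100000 to 16200000 fragments per library, and 18593 to 19389 rows were above 0. Brown adipocyte markers were abundant in every library, with Ucp1 between 733 and 1935 FPKM. The summed FPKM of 8 skeletal muscle markers was 181 and 666 in Sox4f/f and 13107 and 2258 in the libraries labelled Sox4-MKO. Mouse 1 labelled Sox4-MKO thus stood apart, but mouse 2 was also above both controls. Of the 8 markers, 7 were higher without overlap and 0 lower. Leaving out mouse 1 therefore does not even out the muscle markers. Macrophage markers (6 of 6) and fibroblast markers (4 of 4) did not overlap between the genotypes and were higher under the Sox4-MKO label. Their summed FPKM was 152 and 233 against 317 and 320 for macrophages, and 174 and 210 against 399 and 362 for fibroblasts. Of the Schwann cell markers, 3 of 4 were higher without overlap and 0 lower. Over all genes tested, 21.7% were higher and 29.6% lower without overlap. The part of these cell types in the differences of the members was not tested beyond leaving out mouse 1 labelled Sox4-MKO. In such a fit that genotype has 1 library, which is assumed to vary like the controls, so its p-values rest on the spread of the controls and the prior of limma. All 5 brown adipocyte markers were lower without overlap, with a summed FPKM of 7430 and 7322 against 3637 and 4363. Markers of keratinocytes and sebaceous glands, cells known for Elovl3 and Elovl4, together had between 1.70 and 3.83 FPKM, with 3 of 7 at 0 in all libraries. In bulk tissue, fewer cells of a type and less RNA per cell cannot be told apart.

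**Figure D1:**
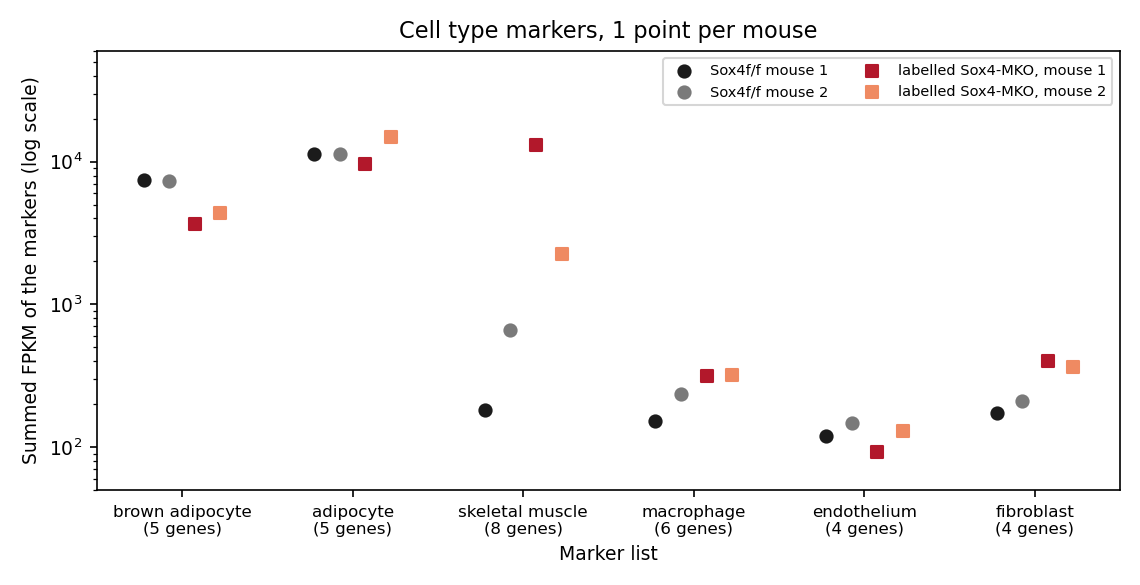
Summed FPKM of 6 marker lists (log scale) with 1 point per mouse, circles for Sox4f/f and squares for the libraries labelled Sox4-MKO. The skeletal muscle sum reaches 13107 FPKM in mouse 1 labelled Sox4-MKO against 181 and 666 FPKM in the controls, and the brown adipocyte sum is lower in both mice under that label.

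The members spanned a wide range of levels, and Elovl6 was the leading elongase of this tissue. The plot of member levels by mouse shows the 10 genes in the order of their mean level. Tecr, the enoyl reductase, was the most abundant with 182 to 267 FPKM, followed by Hsd17b12, the ketoreductase, with 131 to 191 FPKM, and by Elovl6 with 91.2 to 185 FPKM. These 3 neighbours overlapped across mice, although in each of the 4 libraries Tecr was above Hsd17b12 and Hsd17b12 above Elovl6. Elovl5, which lengthens polyunsaturated fatty acids, came next with 39.7 to 72.7 FPKM and lay below Elovl6 without overlap. Hacd3, one of the dehydratases, had 12.5 to 15.3 FPKM and Elovl1, which makes very long saturated chains for sphingolipids, 9.96 to 15.4 FPKM. These neighbours overlapped, with Hacd3 above Elovl1 in the Sox4f/f libraries and below it in the other libraries. Elovl3 was far lower, at 1.31 to 3.24 FPKM, above 16.9% of the tested genes. Elovl7, Elovl4 and Elovl2 had at most 0.373 FPKM in any library, and Elovl2 was listed at 0 in mouse 1 labelled Sox4-MKO.

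**Figure D2:**
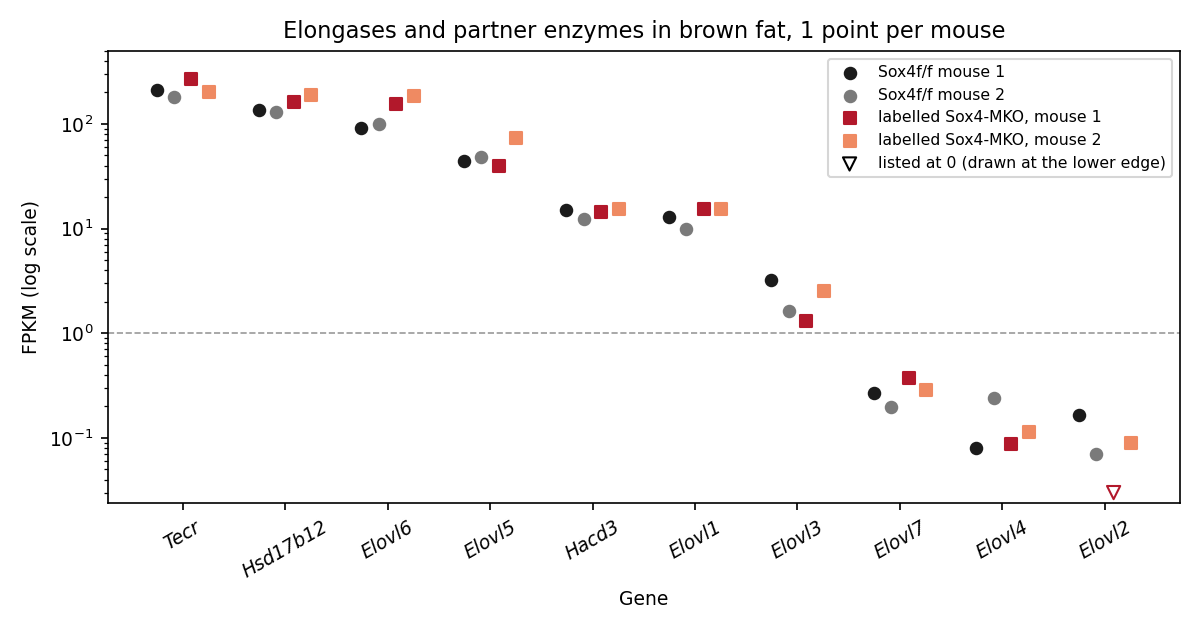
FPKM (log scale) of the 10 members in order of their mean level, with 1 point per mouse, circles for Sox4f/f and squares for the libraries labelled Sox4-MKO. Tecr, Hsd17b12 and Elovl6 have at least 91.2 FPKM in every mouse, Elovl3 lies between 1.31 and 3.24 FPKM, and the open triangle marks Elovl2 listed at 0.

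Genes whose mean FPKM exceeded 1 in either genotype were tested by limma on log2(FPKM + 1), and a gene is called at an unadjusted p under 0.05, the threshold of the study. Of the 10 members, 7 entered the test and 2 were called, Elovl6 and Hsd17b12, both higher in the libraries labelled Sox4-MKO. Over all 12877 genes tested, 16.2% were called, 7.95% higher and 8.28% lower. After Benjamini-Hochberg adjustment over all genes, none of the members and 0% of all genes passed 0.05 by limma, although 2090 genes had an unadjusted p under 0.05, and the smallest adjusted p of any gene was 0.191. The genotypes did not overlap at 3 of the 7 tested members, all higher (Elovl6, Elovl1 and Hsd17b12), while of all genes 21.7% were higher and 29.6% lower without overlap. The log2 fold change was positive for 6 of the 7, with a median of 0.24, against 5671 of the 12877 genes tested and a median of -0.05. Among the 6, Elovl5 (-0.21) and Hacd3 (-0.016) turned negative with mouse 2 labelled Sox4-MKO and Sox4f/f mouse 2 left out, respectively. Without mouse 1 labelled Sox4-MKO, 3 members were called higher, Elovl6, Elovl5 and Hsd17b12, and without mouse 2 of either genotype only Elovl6 was. With that first mouse left out, 7.21% of all genes were called higher and 7.88% lower, and the lone library is assumed to vary like the controls. When the libraries were rescaled without the mitochondrially encoded genes and Ucp1, 1322 genes were called higher and 746 lower, against 1024 and 1066 otherwise, and 3 members were called, all higher. With so few mice, permuting the labels exactly over 1 gene gives a two-sided p of 0.33 at the lowest.

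Elovl6, on the plus strand of chromosome 3 (GRCm38, 129532355 to 129638495), had 91.2 and 99.4 FPKM in control mice 1 and 2, and 155 and 185 FPKM in mice 1 and 2 labelled Sox4-MKO. Both mice under that label were above both controls, by 1.56 to 2.03 times in the 4 pairs. The mean was 95.3 ± 5.80 FPKM in the controls and 170 ± 20.9 FPKM in the others (SD, n = 2 mice each), a ratio of 1.79. The log2 fold change was 0.83 with a standard error of 0.14 and a 95% interval of 0.46 to 1.19 (limma, unadjusted p = 0.0025, adjusted p = 0.196). It was larger than that of 93.1% of the tested genes. Leaving out each library in turn gave log2 fold changes between 0.70 and 0.95, and 0.95 was the value without mouse 1 labelled Sox4-MKO, the library rich in muscle markers. Its unadjusted p stayed under 0.05 in all 16 alternatives of scaling, filter, pseudocount, variance and libraries. An exon of Gm35986 overlaps Elovl6 on the opposite strand, at 1.52 to 3.28 FPKM. Elovl6 belongs to the lipogenesis genes the study displayed from these libraries, so its direction is not independent evidence.

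Elovl5, on the plus strand of chromosome 9 (77917364 to 77984519), had 44.2 and 48.1 FPKM in the controls, and 39.7 and 72.7 FPKM in mice 1 and 2 labelled Sox4-MKO. The 2 mice under that label lay on either side of the controls, so the genotypes overlapped. The log2 fold change was 0.22 with a standard error of 0.30 and an interval of -0.59 to 1.02 (adjusted p = 0.743, limma). It was 0.65 without mouse 1 labelled Sox4-MKO, with an unadjusted p of 0.0124 by limma that takes its spread from the 2 controls, and -0.21 without mouse 2, so a single library decides its direction.

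Elovl1, on the plus strand of chromosome 4 (118428093 to 118432953), had 12.8 and 9.96 FPKM in the controls, and 15.4 FPKM in each of the libraries labelled Sox4-MKO. The genotypes did not overlap, and the controls were further from each other than the nearer of them was from the other mice. The mean was 11.4 ± 2.03 FPKM against 15.4 ± 0.0127 FPKM (SD, n = 2 mice each). A log2 fold change of 0.41 resulted, with a standard error of 0.17 and an interval of -0.03 to 0.85 (limma, unadjusted p = 0.0619, adjusted p = 0.328), and Elovl1 was thus not called. Without mouse 1 labelled Sox4-MKO the value was also 0.41, and without Sox4f/f mouse 2 it was 0.24. Its unadjusted p passed the threshold after quantile normalization (0.0486), after rescaling without the mitochondrially encoded genes and Ucp1 (0.0396) and without Sox4f/f mouse 1 (0.0497). Cdc20 overlaps it by exon on the opposite strand, at 0.375 to 0.843 FPKM.

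Elovl3, on the plus strand of chromosome 19 (46131897 to 46135694), had 3.24 and 1.64 FPKM in the controls, and 1.31 and 2.52 FPKM in mice 1 and 2 labelled Sox4-MKO, from an estimated 31 to 81.8 fragments per library. Each genotype held a mouse near the high end and one near the low end, and the genotypes overlapped. The log2 fold change was -0.23 with a standard error of 0.36 and an interval of -1.17 to 0.71 (adjusted p = 0.767, limma). It became 0.07 without mouse 1 labelled Sox4-MKO and 0.11 without Sox4f/f mouse 1, so neither a fall nor a rise was detectable with these mice. Pitx3, which overlaps it by exon on the opposite strand, had 0.570 and 0.218 FPKM in the controls and 2.13 and 0.311 FPKM in the others. It was highest where Elovl3 was lowest, and whether the counting used strand is not given in the sources used here. Relative to the brown fat marker Ucp1, Elovl3 stood at 0.167% and 0.0902% of its level in Sox4f/f and at 0.178% and 0.228% in the other libraries, without overlap (exact permutation p = 0.33, the smallest possible). Ucp1 itself was at 1935 and 1814 FPKM in the controls against 733 and 1105 FPKM.

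The remaining elongases were near the limit of detection. Elovl7, which lengthens saturated and monounsaturated chains, had 0.270 and 0.197 FPKM in the controls and 0.373 and 0.284 FPKM in the other libraries, from an estimated 9.58 to 18.8 fragments. Elovl4, known for the ultra long chains of retina and skin, had 0.0794 and 0.239 FPKM against 0.0868 and 0.115 FPKM, and Elovl2, which makes long polyunsaturated chains, had 0.165 and 0.0697 FPKM against 0 and 0.0884 FPKM. Their estimated fragments were at most 8.67 for Elovl4 and 8.5 for Elovl2. None of the 3 reached the averaged FPKM of 1, and differences between the genotypes were not detectable at this depth. With no limit on FPKM, their log2 fold changes were 0.11, -0.07 and -0.10, close to 0 by construction since the added 1 FPKM exceeds the values.

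Of the partners, Hsd17b12 and Tecr were measured at levels like that of the leading elongase. Hsd17b12, on the minus strand of chromosome 2 (94032689 to 94157964), had 134 and 131 FPKM in the controls, and 163 and 191 FPKM in mice 1 and 2 labelled Sox4-MKO. Both mice under that label were above both controls, which differed little from each other. The mean was 133 ± 2.20 FPKM against 177 ± 19.4 FPKM (SD, n = 2 mice each), a ratio of 1.33. This was a log2 fold change of 0.41, with a standard error of 0.13 and an interval of 0.07 to 0.75 (limma, unadjusted p = 0.0268, adjusted p = 0.254). It kept its direction in all 16 alternatives, from 0.30 to 0.52, but its unadjusted p was 0.05 or above in 8 of them, with a largest value of 0.127 without Sox4f/f mouse 2. The smallest, 0.0128, was that without mouse 1 labelled Sox4-MKO.

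Tecr, on the minus strand of chromosome 8 (83571698 to 83607971), had 213 and 182 FPKM in the controls, and 267 and 201 FPKM in mice 1 and 2 labelled Sox4-MKO. The second of these mice lay between the controls. In the fit its log2 fold change was 0.24, with a standard error of 0.19 and an interval of -0.25 to 0.72 (adjusted p = 0.553, limma), and it was 0.03 without mouse 1 labelled Sox4-MKO, the library with the most muscle RNA, and 0.44 without mouse 2. Hacd3, on the minus strand of chromosome 9 (64986983 to 65021693), had 15.0 and 12.5 FPKM in the controls, and 14.3 and 15.3 FPKM in the others. All 4 mice were close together, and the log2 fold change was 0.11 with an interval of -0.29 to 0.51 (adjusted p = 0.746, limma), or -0.016 without Sox4f/f mouse 2 and 0.15 without mouse 1 labelled Sox4-MKO.

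**Figure D3:**
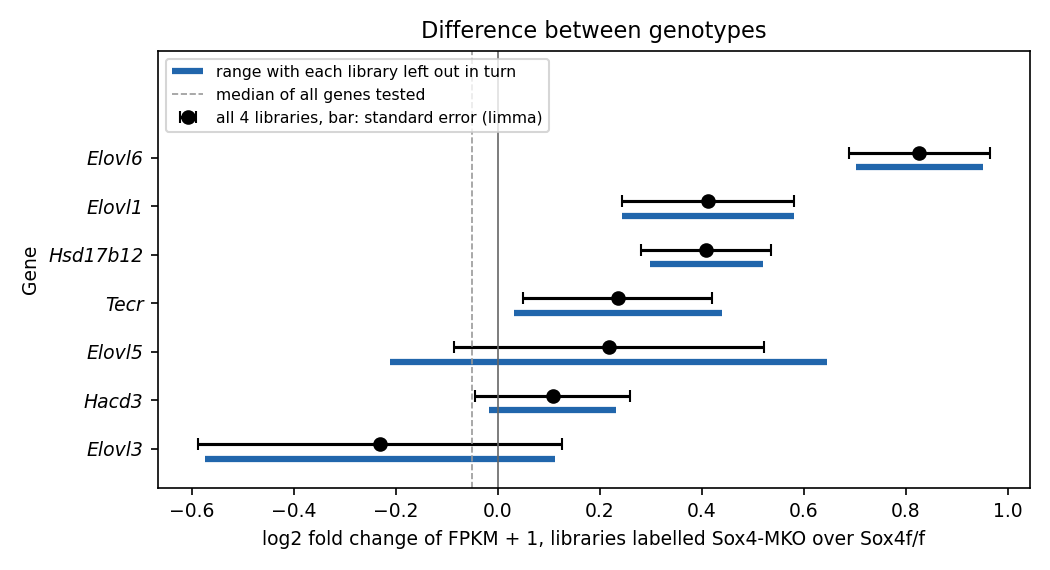
Log2 fold change of FPKM + 1 for the 7 tested members, libraries labelled Sox4-MKO over Sox4f/f. Points with bars are the limma estimate and its standard error over 4 libraries, thick blue bars the range when each library is left out, and the dashed line the median of all genes (-0.05). The ranges of Elovl6 (0.70 to 0.95), Elovl1 (0.24 to 0.58), Hsd17b12 (0.30 to 0.52) and Tecr (0.03 to 0.44) stay above 0, while those of Elovl5, Hacd3 and Elovl3 cross it.

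The make-up of the elongase transcripts was dominated by Elovl6 and Elovl5, which together held 89.1% to 93.3% of the summed FPKM of the 7 Elovl genes in each library. Shares within a library do not depend on how that library was scaled. The sum was 152 and 160 FPKM in the controls and 212 and 276 FPKM in the mice labelled Sox4-MKO, without overlap and with a ratio of means of 1.57, or 1.77 without mouse 1 labelled Sox4-MKO. The Elovl6 share was 60.0% and 62.3% in Sox4f/f and 73.2% and 67.0% in the others, a difference of 8.96 percentage points. The Elovl5 share was 29.1% and 30.1% against 18.7% and 26.3%, a difference of -7.08 percentage points. Without mouse 1 labelled Sox4-MKO these differences were 5.85 and -3.27 percentage points. Thus the share of Elovl6 was higher and that of Elovl5 lower in both mice labelled Sox4-MKO, each with an exact two-sided permutation p of 0.33, the smallest possible with these numbers. Since shares add up to 100, these 2 differences are not independent, and with Elovl6 left out of the sum that of Elovl5 was -1.47 percentage points. The ratio of Elovl6 to Elovl5 was 2.06 and 2.07 in Sox4f/f, nearly the same in both controls, and 3.92 and 2.55 in mice 1 and 2 labelled Sox4-MKO. Elovl1 held 5.57% to 8.44% of the sum. Elovl3 held 2.13% and 1.03% in Sox4f/f and 0.616% and 0.911% in the others, lower without overlap (exact permutation p = 0.33, the smallest possible). The stacked plot of the sum and its make-up shows both readings side by side.

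**Figure D4:**
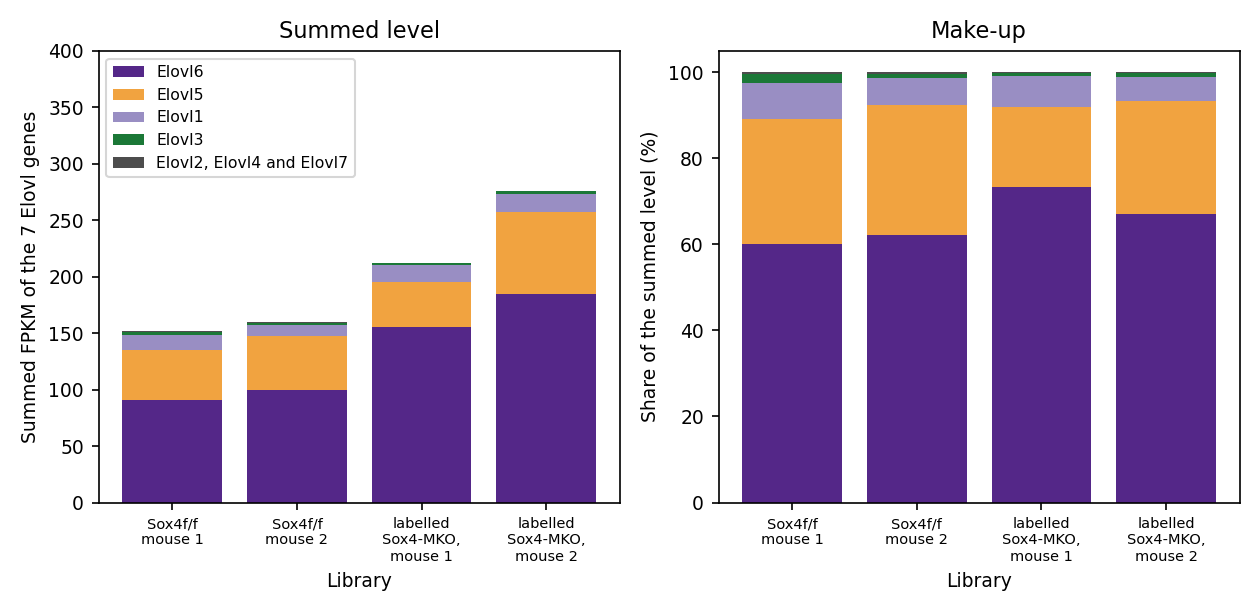
Summed FPKM of the 7 Elovl genes (left) and the share of each gene in that sum in percent (right), with 1 bar per mouse. Elovl6 takes 60.0% and 62.3% of the sum in the Sox4f/f mice and 73.2% and 67.0% in the mice labelled Sox4-MKO, and the bars grow from 152 and 160 to 212 and 276 FPKM.

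Set against the condensing enzymes, the shared steps were of similar abundance. The ratio of Hsd17b12 to the summed Elovl level was 0.885 and 0.823 in Sox4f/f and 0.770 and 0.692 in the other libraries, lower in both mice labelled Sox4-MKO (exact permutation p = 0.33). The ratio of Tecr to the same sum was 1.4 and 1.14 against 1.26 and 0.728, which overlapped. For dehydration, the 4 Hacd genes summed to 162 and 126 FPKM in the controls and to 177 and 171 FPKM in the others. Hacd2 held 77.5% to 79.3% of that sum in each library and Hacd3 8.09% to 9.85%, so the member Hacd3 was a minor dehydratase transcript of this tissue. The plot of transcript level by step shows the 4 steps in turn.

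**Figure D5:**
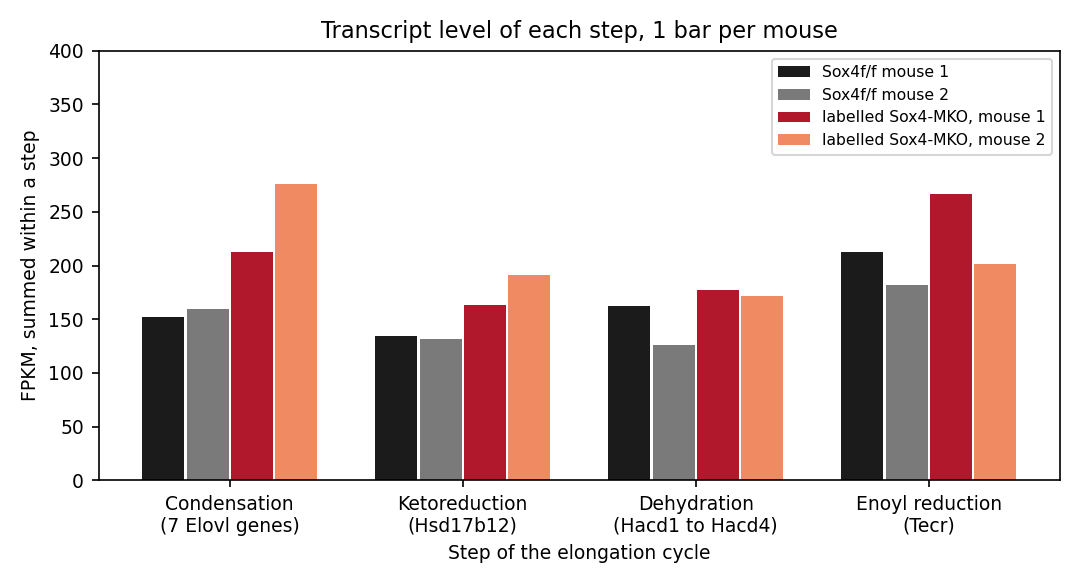
FPKM summed within each step of the elongation cycle, with 1 bar per mouse. The condensation step, summed over the 7 Elovl genes, goes from 152 and 160 FPKM in the controls to 212 and 276 FPKM in the mice labelled Sox4-MKO, while for enoyl reduction (Tecr) the genotypes overlap.

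The genes around the elongases were counted over lists made from known functions, with the same test. The counts of each list stand beside 7.95% called higher and 8.28% called lower over all genes tested. In the list of malonyl-CoA and fatty acid supply, 3 of 11 tested genes were called higher and 1 lower, with a median log2 fold change of 0.15. Me1, the NADPH-forming malic enzyme, rose from 128 and 181 FPKM to 510 and 423 FPKM (log2 fold change 1.60, standard error 0.21, adjusted p = 0.191, limma). Slc25a1, the mitochondrial citrate carrier, rose by 1.09 and Acss2, the cytosolic acetyl-CoA synthetase, by 1.01 on the log2 scale, whereas Acss1, its mitochondrial counterpart, had a log2 fold change of -1.04. Fasn, which makes the palmitate that ELOVL6 accepts, was listed in the first control at 652 FPKM and at 0 in all others, and could not be compared. Without it the median of the list was 0.50. With mouse 1 labelled Sox4-MKO left out, 2 genes of the list were called higher and 2 lower, with a median of -0.018 (0.36 without Fasn), and Acss2, at 0.81, was no longer called. Me1 and Acss2 were also among the lipogenesis genes the study displayed from these libraries, so their direction is not independent evidence.

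Of the desaturases, which work on the same acyl chains, 4 of 7 tested were called higher and 0 lower, with a median of 0.50. Scd2, which makes monounsaturated chains, had 23.7 and 57.5 FPKM in the controls and 89.2 and 122 FPKM in the others (log2 fold change 1.47, standard error 0.45). Fads1, which acts on polyunsaturated chains with ELOVL5, had a log2 fold change of 0.57, and Degs1, the ceramide-forming desaturase, one of 0.42. Scd1, the main desaturase of stearate, had 4491 FPKM in the first control and was listed at 0 elsewhere, like Fasn. Without Scd1 the median of the list was 0.53. Fads6 had a mean of 0.502 FPKM in the controls and 1.15 FPKM in the others, so it entered the test through the higher genotype alone. It was not called, but its log2 fold change of 0.50 was the median given above. Scd2 and Fads1 too were displayed by the study. Leaving out mouse 1 labelled Sox4-MKO, 2 desaturases were called higher and the median was 0.39, and neither Scd2 (1.70) nor Degs1 (0.39) was called. Of the other dehydratases, reductases and their cytochrome b5 partners, 1 of 6 was called higher and 0 lower, with a median of 0.33. The gene called was Cyb5b, with a log2 fold change of 0.51. Hacd4, at a mean of 0.997 FPKM in the controls, entered the test through the other genotype alone and was not called. Among acyl-CoA synthetases, which activate the substrates, 0 of 8 were called higher and 1 lower, Slc27a2, at 125 and 52.4 FPKM in the controls and 37.1 and 32.0 FPKM in the others. Cyb5b was still called (0.67) and Slc27a2 (-1.31) was not without mouse 1 labelled Sox4-MKO.

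Of the genes listed as regulators of elongase transcription, some were called higher and others lower. The list holds transcription factors and cofactors, and also Scap, Insig1 and Insig2, which are neither. Of 15 tested, 2 were called higher and 3 lower, against 7.95% and 8.28% of all genes tested. So few calls cannot set this list apart from all genes. Its median was -0.07, against -0.05 over all genes. Srebf1, the gene of SREBP-1c, had 88.7 and 111 FPKM in the controls and 145 and 131 FPKM in the mice labelled Sox4-MKO (log2 fold change 0.47, standard error 0.16, adjusted p = 0.269, limma). Rxra, the shared partner of several nuclear receptors, had a log2 fold change of 0.49. Ppara, a regulator of fatty acid oxidation, had 115 and 130 FPKM in the controls against 57.7 and 66.4 FPKM (log2 fold change -0.97), the coactivator gene Ppargc1a a log2 fold change of -1.21, and Nr1h2, the gene of LXRβ, one of -0.40. Of the 11 brown fat markers, 0 were called higher and 9 lower, with a median of -0.86. Most of these, Ppara and Ppargc1a included, were displayed by the study from the same libraries, as was Srebf1. By qPCR in BAT of younger Sox4-MKO mice, the study also reported lower BAT-selective genes and higher lipogenesis genes. Without mouse 1 labelled Sox4-MKO, 1 regulator was called higher and 2 lower, Srebf1 (0.40) and Ppargc1a (-1.16) were not called, and 8 of the 11 brown fat markers were called lower with a median of -0.76. Elovl6 and the brown fat markers thus differed in opposite directions between the same mice, while the brown fat gene Elovl3 was not called. Whether Elovl3 differed from those markers in its change was not tested beyond the ratio to Ucp1. The 8 lists name 82 genes, of which 13 were called higher and 14 lower, against 7.95% and 8.28% of all genes tested. The 82 include genes that were not tested and so could not be called. Brown fat markers made up 9 of these 14. Both totals changed with the mice included.

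The genes whose pattern over the 4 libraries was most like that of a member were found by the root mean square distance of centred log2(FPKM + 1), over 12870 tested genes outside the members. For Elovl6 these were Mctp1 (0.021), Mr1 (0.023) and Adamts12 (0.035), and 47 genes lay within 0.1. Mctp1 had a mean of 0.243 FPKM in the controls and 1.19 FPKM in the others, so it entered the test through the higher genotype alone. Its ratio of means was 4.91 against 1.79 for Elovl6, and its nearness comes from the added 1 FPKM. Adamts12, also low, had a ratio of means of 2.24, so the added 1 FPKM bears on its nearness too. For Elovl3 they were Rgs2 (0.026), Ranbp2 (0.035) and 1110051M20Rik (0.061), and 18 genes lay within 0.1. Rgs2 was at 112 and 71.0 FPKM in the controls and at 63.3 and 97.3 FPKM in the others, with the same high and low mice as Elovl3. The added 1 FPKM shrinks the differences of Elovl3, at 1.31 to 3.24 FPKM, but hardly those of Rgs2. Their small distance thus also depends on it. With 4 libraries such likeness is a description only.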

How the data were processed

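RNA sequencing was performed on BAT of 2 Sox4f/f mice and 2 mice labelled Sox4-MKO, grouped by the sample labels. The authors deposited FPKM values by gene symbol, 1 table per mouse and no counts. The submitters' processing notes name Cufflinks 2.1.1, Cuffdiff and mm10, with no role given, and the aligner and strand setting are not given in the sources used here. The methods describe TRIzol extraction and a TruSeq library, the labels a column kit and a stranded mRNA library. Of 55287 symbols, 66 stand on several rows, and 53288 matched GENCODE M21 (GRCm38), from which coordinates were taken. All 4 value columns were mapped to a sample (0 unmapped).

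Since FPKM are not counts, limma 3.58.1 (R 4.3.3) was run on log2(FPKM + 1) with 1 term, genotype, a trended prior, two-sided p-values and Benjamini-Hochberg adjustment over the 12877 genes whose mean FPKM exceeded 1 in either genotype, the filter of the study's methods. Fold changes on this scale understate low genes. The code was tested on simulated data. Shares were tested by exact permutation (scipy 1.17.1), and figures drawn with matplotlib 3.10.9. Named are the 10 members, Sox4, from each list up to 3 called genes in each direction with the smallest p, genes listed at 0 in some libraries and above 10 FPKM in another, and the 3 nearest genes of Elovl3 and Elovl6. Further genes were chosen after their values were seen. Members and lists were chosen with earlier results of these data known. An exact 0 can be a failed estimate. Depth was estimated from the lowest values of 6741 genes that have a single annotated transcript (minimum 1500 nt). It is approximate, and estimated fragments bear on counting error only. Replicates are separate mice. Alternatives were a replicate block, each library left out, 3 scalings, other FPKM limits (0.1, 5 and none) and pseudocounts (0.1 and 0.01), no moderation, a prior without a trend, genes listed at 0 left out, and a fold change of at least 1.5. Promoter windows were 250 bases before to 50 after each RefSeq start.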

Additional observations from a re-analysis of the deposited data

How the results depend on the processing

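Of the members, Elovl6 was called higher in all 16 alternative fits and in those with a fold change of at least 1.5, and Tecr was called in none. The number of members called higher was 2, and 1 after scaling to a common median, with a prior without a trend, without moderation or with a fold change of at least 1.5, and 1 to 3 with each library left out. The mouse numbers are only shared numbers (correlation of deviations -0.012 over 12877 genes), and with them as a replicate block 1 member was called higher, Elovl6, while Hsd17b12 had an unadjusted p of 0.0502 by limma. Over all genes, 553 were called higher without moderation and 433 (without Sox4f/f mouse 1) to 1443 with each library left out, and 399 were called lower with a fold change of at least 1.5 and 380 (again without that mouse) to 1015 with each library left out, while 0 to 4 genes (4 without Sox4f/f mouse 2) passed adjustment. Of the list genes, 4 were called higher without moderation, 8 with a fold change of at least 1.5 and 7 to 13 with each library left out, 7 to 14 were called lower with each library left out, and 0 to 1 passed adjustment. With each library left out, the log2 fold change of Elovl5 was -0.21 (without Sox4-MKO mouse 2) to 0.65, of Elovl3 -0.57 to 0.11 (0.07 without Sox4-MKO mouse 1, 0.11 without Sox4f/f mouse 1), of Hacd3 -0.016 (without Sox4f/f mouse 2) to 0.23 and of Sox4 -0.32 (without Sox4-MKO mouse 2, -0.07 without Sox4f/f mouse 2) to 0.71. With each library left out, the difference in share was 5.85 to 12.1 percentage points for Elovl6, -10.9 to -3.27 for Elovl5 and -2.04 to 0.17 for Elovl1. With Elovl6 left out of the sum it was -1.47 for Elovl5 and 3.14 for Elovl1. The cause of these shifts was not tested, and leaving out a library changes both the number of mice and which mice are compared. Elovl2, Elovl4 and Elovl7 rest on an estimated 18.8 fragments or fewer per library. Where a library is left out, its genotype has 1 library, which is assumed to vary like the other genotype.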

Other observations

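Downstream of elongation, the ceramide synthases attach chains of set length to the sphingoid base. Of 5 tested, 1 was called higher and 1 lower (7.95% and 8.28% of all genes tested), with a median log2 fold change of 0.44. Cers2, which uses the very long chains that ELOVL1 makes, had 132 and 122 FPKM in Sox4f/f and 91.7 and 80.1 FPKM in mice 1 and 2 labelled Sox4-MKO (log2 fold change -0.56, standard error 0.13, adjusted p = 0.214, limma). Cers6, which prefers palmitate, had 1.23 and 0.638 FPKM against 2.27 and 2.47 FPKM (log2 fold change 0.82). For both genes the genotypes did not overlap. The means of Cers6 and Cers1 exceeded 1 FPKM only under the Sox4-MKO label. Both entered the test through the genotype where they are higher. The call of Cers6 and a median that includes both genes are thus no support. Without mouse 1 labelled Sox4-MKO, 0 ceramide synthases were called higher and 1 lower, Cers2 at -0.66, and the median was 0.098. In the list of peroxisomal oxidation, which shortens very long chains, 2 of 10 were called higher and 1 lower, with a median of -0.07. The transporter gene Abcd2 had 30.7 and 26.2 FPKM in Sox4f/f and 64.3 and 59.7 FPKM in the others (log2 fold change 1.10, adjusted p = 0.191, limma), its relative Abcd3 a log2 fold change of -0.32, and the thiolase gene Acaa1b one of 0.69. Without the same mouse, Abcd2 (1.05) and Acaa1b (0.75) were called and Abcd3 (-0.39) was not.

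Some relatives of the members, and Cers1, were highest in mouse 1 labelled Sox4-MKO, the library with the highest skeletal muscle marker sum. These genes were chosen after their values were seen. Tecrl, a relative of Tecr, was listed at 0 and had 0.131 FPKM in Sox4f/f, and 1.95 and 0.0389 FPKM in mice 1 and 2 labelled Sox4-MKO. Cers1 had 0.161 and 0.0523 FPKM in Sox4f/f, and 2.13 and 0.159 FPKM in the others. Hacd1 had 20.1 and 14.3 FPKM against 24.0 and 18.0 FPKM. The part of muscle RNA in these values was not tested.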
